A study of Quercus suber with 11 samples.

Results

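The NAC and MYB switches of the secondary wall were examined in innercork of cork oak (Quercus suber), the inner face of the cork plank that holds living phellem (cork cells) and phellogen (cork cambium). The members were all loci whose Arabidopsis best hit, as given in the expression table, was NST1 (AT2G46770), SND1 (AT1G32770), VND1 (AT2G18060), VND7 (AT1G71930), MYB46 (AT5G12870), MYB83 (AT3G08500), MYB63 (AT1G79180), MYB85 (AT4G22680), MYB103 (AT1G63910) or KNAT7 (AT1G62990). They were 10 of the 32024 loci in the table and covered 8 of the 10 Arabidopsis genes, since no locus had SND1 or MYB85 as its best hit. Virgin cork was harvested from naturally growing forest trees in April (4 trees), June (3 trees) and July (4 trees), the beginning, the peak and an advanced stage of the cork growing season. Every library came from another tree, so month and tree were sampled together and no tree was followed through the season.

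In Arabidopsis and in wood, secondary walls are laid down by a layered network of transcription factors. NAC proteins stand at the top: the VND proteins act in water-conducting vessels, and NST1 and SND1 act together in fibres. They switch on MYB46 and the closely related MYB83, which in turn act on further regulators (MYB63, MYB85, MYB103, KNAT7) and on the enzymes that make cellulose, xylan and lignin. Phellem cells also thicken their walls, mostly with suberin, and the lignin and polysaccharide part of those walls draws on the same families of enzymes.

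Levels were read as rlog values, regularised log2 counts, so that a difference of 1 stands for a doubling. The values are not corrected for transcript length, so levels were compared between months within a locus and not between loci. A locus was tested where its mean rlog reached 3.32 (a linear level of 10), as 22426 loci did. It was called a differentially expressed gene (DEG) at an adjusted p of at most 0.01 with an absolute log2FC, the difference of month means, above 1. All adjusted p values are from limma with Benjamini-Hochberg adjustment over the 22426 loci. The table holds no counts, so the depth behind each value and sample is unknown. For the same reason no count model could be run, and since rlog shrinks differences, a locus that missed the DEG limits here is not shown to be unchanged.

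Of the 10 member loci, 8 reached the minimum and 2 did not. The tested ones were a pair of NST1 loci, a pair of MYB63 loci and 1 locus each for MYB46, MYB83, MYB103 and KNAT7. The vessel-type NAC switches were far under the minimum in every tree. The VND1 homolog LOC111996673 lay between 0.11 and 0.27 rlog over the 11 trees. The VND7 homolog LOC111984646 lay between -1.69 and -1.64 rlog, beside a lowest value of -1.95 rlog anywhere in the table. Of the 6 further NAC switches looked for (NST2 and VND2 to VND6), the only homolog found was LOC112036629 for VND6, with a mean of -1.94 rlog. Of these top-level NAC switches, only the NST1 homologs were above the minimum.

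The libraries differed in marker levels and in ribosomal RNA share, and the part of these differences in the member values was not tested. Most markers of the labelled phellem and phellogen were present. Of 7 phellem marker loci 6 were above the minimum, among them CYP86A1 LOC112038977, a suberin fatty acid hydroxylase, with a mean of 18.08 rlog, and the phellogen and cambium list had loci for WOX4, ANT and KNAT1 above the minimum, while its PXY locus LOC112019802 was at a mean of -1.45 rlog. Phloem transcripts were present too, among them the sieve element protein SEOR1 (LOC111994151, mean 13.58 rlog), with 7 of 14 phloem marker loci above the minimum and no locus for APL. The summed linear level of the phloem markers spanned 4970 to 13400 in April, 19100 to 30400 in June and 5860 to 28300 in July. SEOR1 LOC111994151 alone made up 80.8 to 92.5% of that sum, and SUC2 LOC111984700, a companion cell sucrose transporter, had log2FCs of -1.38 (June/April, adjusted p = 0.363) and -1.35 (July/April, adjusted p = 0.33). July replicate 4 carried 14.7% of its summed level in 9 ribosomal RNA loci, against 3.76 to 5.87% in the other July trees, and its mean correlation with the trees of its own month was -0.067. April replicate 2 had the lowest such correlation in April, 0.002.

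NST1, the fibre-type NAC switch, had one locus that was higher later in the season. LOC112008346 was at 8.04, 7.47, 7.18 and 7.53 rlog in the April trees, at 8.53, 8.66 and 8.45 rlog in the June trees and at 9.58, 8.70, 10.28 and 8.21 rlog in the July trees. Every June tree and every July tree lay above every April tree, and the July trees spread over 2.07 rlog units. In July it averaged 9.19 ± 0.92 rlog (SD, n = 4), against 7.56 ± 0.36 rlog in April (SD, n = 4), a log2FC of 1.64 (SE 0.39, 95% interval 0.78 to 2.5, 3.11-fold, adjusted p = 0.024). It thus passed an adjusted p of 0.05 in July/April but missed the DEG limit of 0.01. In June it averaged 8.55 ± 0.10 rlog (SD, n = 3), and the June/April log2FC of 0.99 (SE 0.42, 95% interval 0.06 to 1.92) had an adjusted p of 0.1529. The July/June log2FC of 0.65 had an interval that spanned 0 (-0.28 to 1.58, adjusted p = 0.7172).

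The other NST1 locus, LOC112034119, gave smaller differences. It was at 10.13, 9.78, 8.95 and 10.16 rlog in April, at 9.89, 10.04 and 9.78 rlog in June and at 10.08, 10.34, 11.03 and 9.71 rlog in July. The trees of the 3 months overlapped throughout, and the July/April log2FC was 0.53 (SE 0.31, 95% interval -0.16 to 1.23, adjusted p = 0.2822). The June/April log2FC was 0.15 (SE 0.34, adjusted p = 0.807).

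**Figure D1:**
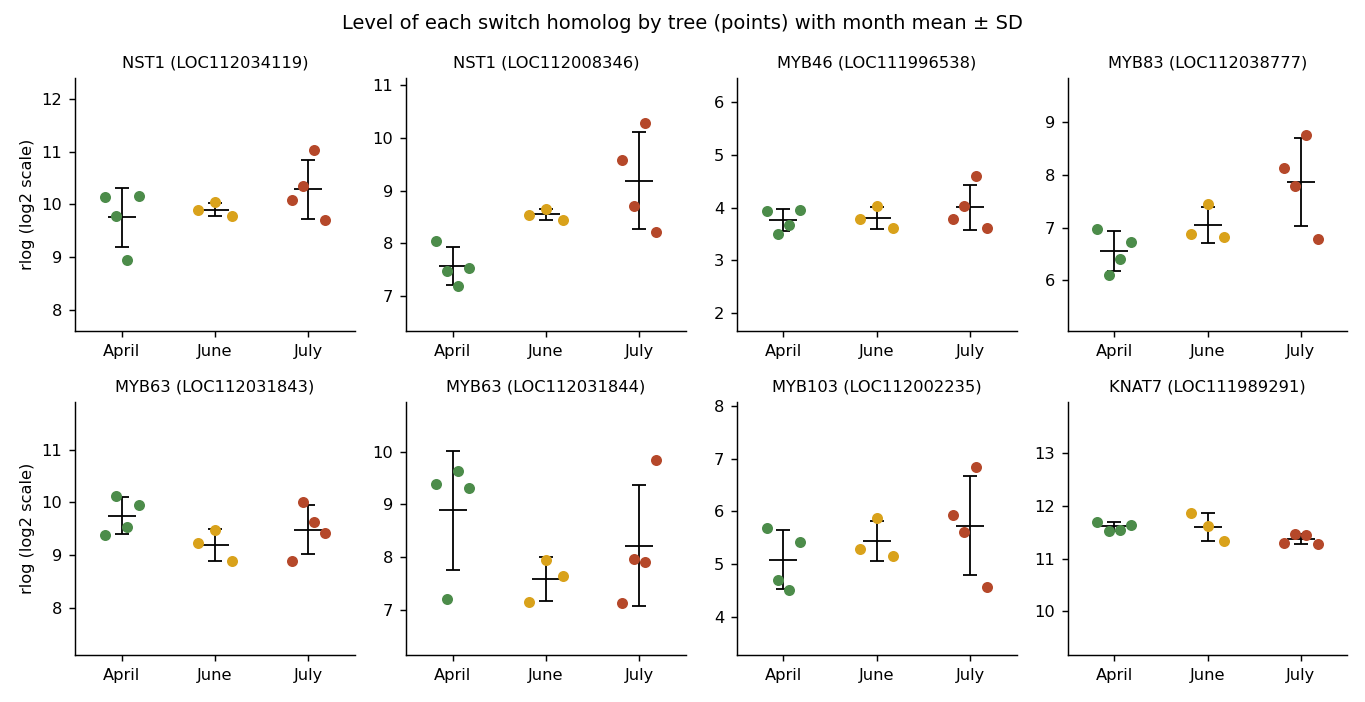
rlog level (vertical axis, log2 scale, each panel spanning the same number of units) of the 8 tested member loci in each tree (points) by month, with the month mean and SD in black (n = 4 in April and July, n = 3 in June). NST1 LOC112008346 is the one locus whose June and July trees all lie above its April trees, and KNAT7 the one with the smallest spread, 0.60 rlog units over all trees.

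Because the NST1 loci share 1 Arabidopsis best hit and may be similar in sequence, reads could have been split between them in counting, and their separate levels are uncertain to that extent. Their difference within each tree, LOC112008346 minus LOC112034119, was followed as well. Reads counted at the wrong locus would alter this difference too, so it cannot remove that uncertainty. The difference was -2.09, -2.30, -1.77 and -2.62 in April, -1.36, -1.38 and -1.33 in June and -0.50, -1.64, -0.75 and -1.50 in July. All June and July trees had a smaller gap than any April tree. The difference averaged -1.10 ± 0.56 in July (SD, n = 4) and -2.20 ± 0.36 in April (SD, n = 4), a change of 1.10 with a two-sided exact permutation p of 0.0286, the smallest that 70 splits allow, and an adjusted p of 0.171 over the 6 tests made on such pairs. The June/April change was 0.84 (exact permutation p = 0.0571, adjusted p = 0.171). A smallest possible p of 0.0286 in each test limited how low the adjusted values could be with this number of trees.

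MYB83, one of the paired master MYB switches directly under the NAC proteins, came next in size. LOC112038777 was at 6.97, 6.10, 6.41 and 6.73 rlog in April, at 6.88, 7.45 and 6.83 rlog in June and at 8.14, 7.79, 8.77 and 6.78 rlog in July. In 3 of the 4 July trees it was above every April and June tree, while July replicate 4 lay inside the April range. The July mean was 7.87 ± 0.83 rlog (SD, n = 4), against 6.55 ± 0.38 rlog in April (SD, n = 4), a log2FC of 1.32 (SE 0.38, 95% interval 0.47 to 2.17, 2.5-fold). Its adjusted p of 0.05005 fell just short of 0.05. The June/April log2FC was 0.50 (SE 0.41, adjusted p = 0.4542) and the July/June log2FC 0.82 (SE 0.41, adjusted p = 0.6253).

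MYB46, the partner switch of MYB83, was close to the minimum and its months differed by less than the spread of trees. LOC111996538 was at 3.93, 3.51, 3.68 and 3.96 rlog in April, at 3.79, 4.04 and 3.62 rlog in June and at 3.79, 4.03, 4.60 and 3.62 rlog in July. The highest value was that of July replicate 3, and the other trees of the 3 months overlapped. The July/April log2FC was 0.24 (SE 0.22, 95% interval -0.24 to 0.72, adjusted p = 0.4979), or 0.37 without July replicate 4 (adjusted p = 0.274) and 0.15 without April replicate 2 (adjusted p = 0.677). At a level this close to the minimum the rlog transformation shrinks differences, so the interval holds for rlog values only.

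MYB103, which in Arabidopsis acts on the syringyl part of lignin and on cellulose genes, varied among trees within each month. LOC112002235 was at 5.69, 4.70, 4.51 and 5.42 rlog in April, at 5.28, 5.87 and 5.15 rlog in June and at 5.93, 5.61, 6.84 and 4.56 rlog in July. July held both the highest tree, replicate 3, and nearly the lowest, replicate 4. The July/April log2FC of 0.65 (SE 0.45, 95% interval -0.35 to 1.65) had an adjusted p of 0.363, and without July replicate 4 it was 1.05 (adjusted p = 0.0976).

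MYB63 is an activator of lignin genes in Arabidopsis, and its homologs had negative log2FCs against April in both later months, none past the test. LOC112031843 was at 9.37, 10.12, 9.53 and 9.94 rlog in April, at 9.22, 9.47 and 8.88 rlog in June and at 8.89, 10.01, 9.62 and 9.42 rlog in July. Its log2FC was -0.55 in June/April (SE 0.27, 95% interval -1.15 to 0.05, adjusted p = 0.2138) and -0.26 in July/April (SE 0.25, adjusted p = 0.5359), or -0.13 without April replicate 2 (adjusted p = 0.762).

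The adjacent locus LOC112031844 behaved differently from tree to tree. RefSeq lists it as a long non-coding RNA next to LOC112031843, in assembly Cork oak 2.0, and the other 9 member loci as protein-coding. It was at 9.38, 7.21, 9.64 and 9.31 rlog in April, at 7.14, 7.95 and 7.64 rlog in June and at 7.13, 7.96, 7.91 and 9.84 rlog in July. Its trees formed a high set above 9 rlog (April replicates 1, 3 and 4 and July replicate 4) and a low set below 8 rlog (the rest). With a residual SD of 1.008, its June/April log2FC of -1.31 (SE 0.68, 95% interval -2.83 to 0.21) had an adjusted p of 0.2373, and July/April gave -0.68 (SE 0.63, adjusted p = 0.5112). Without April replicate 2 its June/April log2FC was -1.87 (adjusted p = 0.0463). The July/April value was -1.24 without April replicate 2 (adjusted p = 0.128) and -1.22 without July replicate 4 (adjusted p = 0.158). April replicate 2 and July replicate 4 are the trees that lay in the set of the other month, so leaving both out favours a call in advance. Without both, a choice made after the values were seen, it met the DEG limits in June/April (log2FC -1.87) and July/April (log2FC -1.78). That fit called 5.3% and 5.94% of all tested loci in these comparisons, and the call is no support for a month difference. How reads were divided between these neighbours is not given in the sources used here.

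The difference of LOC112031843 minus LOC112031844 within trees was -0.01, 2.91, -0.12 and 0.62 in April, 2.08, 1.52 and 1.24 in June and 1.76, 2.05, 1.71 and -0.42 in July. The exact permutation p was 0.457 for June/April, 0.686 for July/April and 0.857 for July/June, and the April and July trees overlapped.

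**Figure D2:**
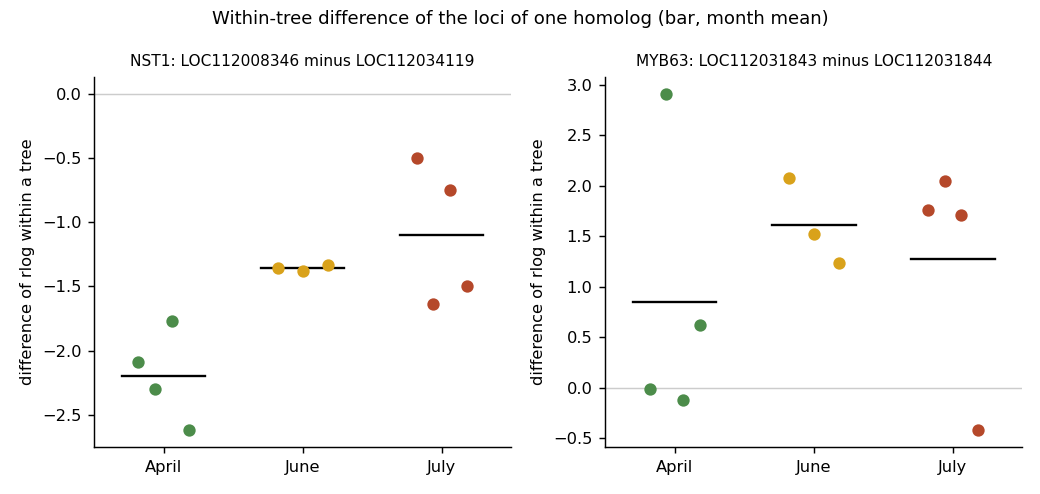
Difference of rlog values within a tree (vertical axis, log2 scale, a scale of its own in each panel) between the NST1 loci (left) and the MYB63 loci (right), by month; points are trees and bars month means. For NST1 the April trees lie between -2.62 and -1.77 and all June and July trees lie above them, while for MYB63 April replicate 2 (2.91) and July replicate 4 (-0.42) lie apart from the trees of their months.

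KNAT7, a homeodomain protein that acts in Arabidopsis mostly as a repressor in this network, was the steadiest member. LOC111989291 was at 11.70, 11.53, 11.55 and 11.64 rlog in April, at 11.86, 11.61 and 11.33 rlog in June and at 11.30, 11.47, 11.45 and 11.27 rlog in July. Its 11 values spanned 0.60 rlog units. Every July tree was below every April tree, but the distance was small, with a log2FC of -0.23 (SE 0.12, 95% interval -0.49 to 0.03, adjusted p = 0.2099). The June/April log2FC was 0.00 (SE 0.13, 95% interval -0.28 to 0.28).

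Counted together, 0 of the 8 members were DEGs by limma in any of the 3 comparisons. Over all tested loci the share of DEGs was 1.46% for June/April, 2.04% for July/April and 0.00446% for July/June. At an adjusted p of at most 0.05 with no fold limit, 1 member passed for July/April (NST1 LOC112008346) and 0 for June/April and July/June, beside 12%, 9.81% and 0.00446% of all tested loci. At an unadjusted p under 0.05 they were 1, 2 and 0 of 8, beside 28.3%, 30% and 8.93% of all loci for June/April, July/April and July/June. Members whose trees did not overlap between months were 1 higher and 0 lower for June/April (NST1 LOC112008346, beside 13.9% and 13% of all loci), 1 higher and 1 lower for July/April (NST1 LOC112008346 and KNAT7, beside 8.7% and 8.78%) and 0 for July/June (beside 5.11% and 5.58%). As shares of 8 loci these counts were near the background. The median log2FC of the 8 members was 0.10, 0.39 and 0.34 for the same comparisons, beside -0.024, -0.02 and 0 over all tested loci.

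**Figure D3:**
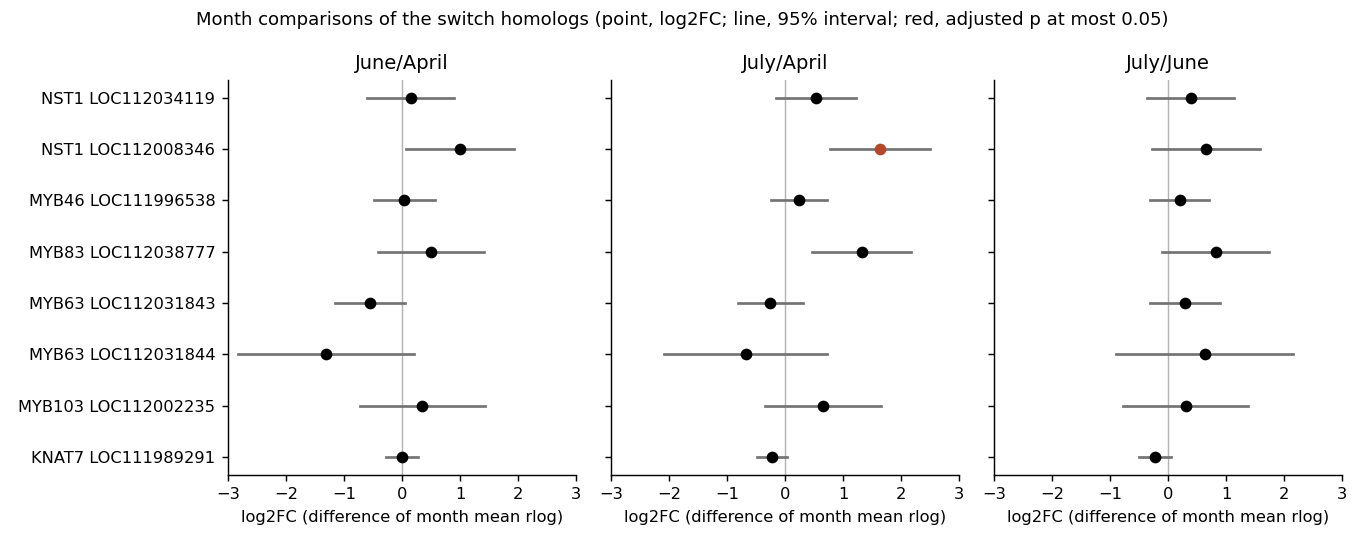
log2FC (horizontal axis, difference of month mean rlog) of the 8 tested members in each month comparison, with the 95% interval from limma as a line and an adjusted p of at most 0.05 in red. The NST1 locus LOC112008346 in July/April (1.64, interval 0.78 to 2.5) is the only red point, followed by MYB83 (1.32, interval 0.47 to 2.17), and KNAT7 has the narrowest intervals.

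Several members shared the order of trees within a month. July replicate 3 was the highest July tree in 5 of the 8 members (both NST1 loci, MYB46, MYB83 and MYB103) and July replicate 4 the lowest in 6 of 8 (the same 5 and KNAT7). June replicate 2 was the highest June tree in 7 of 8 members. NST1 LOC112008346 and MYB83 were correlated over the 11 trees with r = 0.94, and with r = 0.90 after month means were taken off. MYB83 and MYB103 had r = 0.89 (0.97 within months), MYB46 and MYB103 had r = 0.89 (0.88 within months), and the NST1 loci had r = 0.76 (0.74 within months). KNAT7 had r between -0.31 and 0.23 with the other members, and the MYB63 loci had r = 0.18 with each other. These correlations describe 11 libraries in which each point is 1 tree, and the points share tissue make-up and normalization.

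The July/April values of the leading members depended on which July tree was counted. Without July replicate 4, NST1 LOC112008346 had a July/April log2FC of 1.96 (adjusted p = 0.00775) and MYB83 of 1.68 (adjusted p = 0.00871), and both were then DEGs, beside 2.33% of all tested loci. With each tree weighted by its quality in limma, NST1 LOC112008346 was a DEG (log2FC 1.73, adjusted p = 0.00683) in a fit that called 5.67% of all loci. Leaving out each of the 11 trees in turn, NST1 LOC112008346 kept an adjusted p of at most 0.05 in 8 of 11 fits and lost it without April replicate 3, April replicate 4 or July replicate 1, with values of 0.0627, 0.0631 and 0.0648. A fit of the April and July trees alone gave an adjusted p of 0.0564. Its July/April log2FC stayed between 1.27 and 1.96 over the left-out trees.

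The enzymes under the switches were followed through lists of Arabidopsis genes for cellulose, xylan and lignin of secondary walls, 109 loci of which 78 were tested. Of these 78, 1 was a DEG, for July/April only. At an adjusted p of at most 0.05, 21 were higher and 2 lower in July/April, beside 6.31% and 5.73% of all tested loci, and 6 were higher and 1 lower in June/April, beside 5.57% and 4.23%. The lists were chosen with earlier results of these same data known, so a count above that share is no independent support. Both these counts and the share over all tested loci changed when single trees were left out. For July/April, 23 of the 78 passed an adjusted p of 0.05, beside 12% of all tested loci. The count became 6 without April replicate 3 (beside 7.6%), 9 without April replicate 4 (5.81%) and 14 without April replicate 1 (6.02%). It became 10, 13, 11 and 32 without July replicates 1 to 4 in turn (beside 7.37%, 7.42%, 7.34% and 15%). A fit of those months alone gave 9 (beside 7.57%). For June/April, 7 passed, beside 9.81%. That count became 17 without April replicate 2 (beside 21.4%), 1 without June replicate 1 (2.94%) and 1 without June replicate 3 (4.42%). It was 3 without June replicate 2 (4.23%) or April replicate 1 (4.02%), and 4 without April replicate 4 (4.74%). In July/June 0 of 78 passed in limma, with 13 of 78 at an unadjusted p under 0.05, beside 8.93% of all tested loci. The lists differed in size of change and are given in turn.

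The cellulose list (subunits of the secondary wall cellulose synthase and proteins that act with them) had 14 tested loci, with a median log2FC of 0.75 for June/April and 1.15 for July/April. By limma 0 were DEGs. In July/April 6 were higher and 0 lower at an adjusted p of at most 0.05, beside 6.31% and 5.73% of all tested loci. At an unadjusted p under 0.05 they were 10 of 14, beside 30%. CESA7 LOC112026131, a cellulose synthase subunit, was at 11.92, 11.33, 12.98 and 10.01 rlog in July trees, against 10.12, 8.64, 8.28 and 9.48 rlog in April trees, a log2FC of 2.43 (SE 0.60, adjusted p = 0.0277). July replicate 4 lay within the April range, as it did for MYB83. COBL4 LOC112009789, a membrane-anchored protein needed for cellulose deposition, averaged 11.33 ± 1.04 rlog in July and 10.33 ± 0.43 rlog in April (SD, n = 4 each), a log2FC of 1.00 with an adjusted p of 0.152. The 6 loci that passed, named here after their values were seen, were a pair for CESA4 and 1 each for CESA7, CESA8, COBL4 (LOC112004749) and FLA11, so that all 3 subunit types of the secondary wall synthase were among them.

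The xylan list had 16 tested loci, with median log2FCs of 0.40 (June/April) and 0.69 (July/April), and held the DEG. IRX15L LOC111995756, needed for normal xylan length in Arabidopsis, rose in July to 13.12, 13.58, 13.64 and 12.71 rlog, against 11.63, 12.33, 11.72 and 12.36 rlog in April. All July trees were above all April trees, with a log2FC of 1.25 (SE 0.23, adjusted p = 0.00884), and the June/April log2FC was 1.17 (SE 0.25, adjusted p = 0.0198). Leaving out any 1 tree other than April replicate 2 or July replicate 4 gave 0 July/April DEGs among the 78 loci. Without April replicate 2, 3 were called (beside 4.34% of all tested loci), and without July replicate 4, 12 (beside 2.33%). For June/April, 4 were called without April replicate 2 (beside 4.16%) and 1 without July replicate 1 (beside 1.28%). At an adjusted p of at most 0.05, 5 xylan loci were higher and 1 (ESK1 LOC112015558, log2FC -0.62, named after its value was seen) lower in July/April, beside 6.31% and 5.73% of all tested loci.

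The lignin list had 48 tested loci, with median log2FCs of 0.47 (June/April) and 0.43 (July/April) and 0 DEGs. In July/April 10 were higher and 1 lower at an adjusted p of at most 0.05, beside 6.31% and 5.73% of all tested loci. For June/April, 5 were higher and 0 lower, beside 5.57% and 4.23%. Named after their values were seen, these were a pair for PAL1 and single loci for 4CL2, C3H1 and COMT1, with log2FCs of 0.82 to 1.11. Between July and April, the loci with the highest mean rlog of the list differed by less than the spread of trees. CCOAOMT1 LOC111992262, a methyltransferase of monolignol synthesis, averaged 16.70 ± 0.20 rlog in July and 16.59 ± 0.33 rlog in April (SD, n = 4 each), with a log2FC of 0.11 (SE 0.20, adjusted p = 0.762). PAL2 LOC112009271, the entry enzyme of the phenylpropanoid pathway, which also feeds suberin aromatics, had a July/April log2FC of 0.31 (SE 0.26, adjusted p = 0.468). Its June/April log2FC was 0.63 (SE 0.29, adjusted p = 0.175). Named after their values were seen, 5 of the 10 higher loci in July/April were laccases, which polymerise lignin in the wall, with log2FCs of 1.91 to 2.95 (3 LAC17 loci and a pair for LAC4). The other tested LAC4, LAC17 and LAC11 loci did not pass, with log2FCs of -0.43 to 0.77. Among these was LAC4 LOC112003315 (mean 12.99 rlog, log2FC 0.37, SE 0.23, adjusted p = 0.319).

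**Figure D4:**
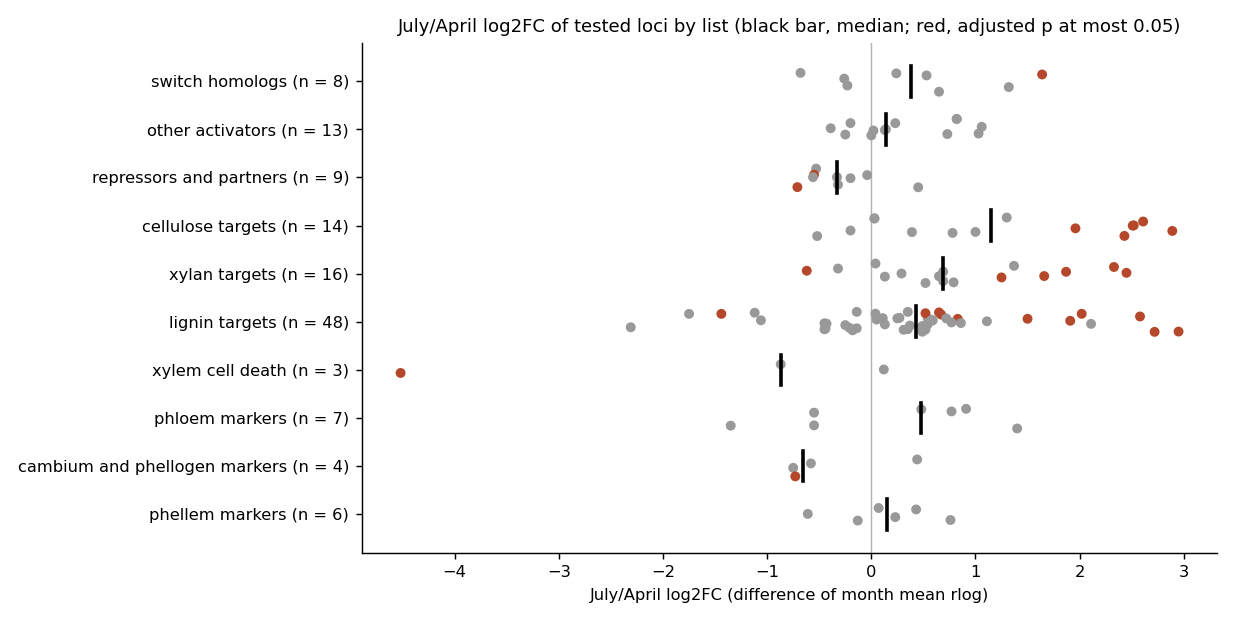
July/April log2FC (horizontal axis) of every tested locus of the members and of the other lists, 1 point a locus, with the list median as a black bar and an adjusted p of at most 0.05 in red; the vertical scatter within a list carries no value. The cellulose list has the highest median (1.15), and its red loci lie above the largest value of the members (1.64).

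In July the cellulose and xylan medians had the same order of trees as NST1 LOC112008346 and MYB83. Relative to the April mean, the cellulose median was 1.19, 0.98, 2.19 and 0.56 in July replicates 1 to 4, beside 2.02, 1.15, 2.72 and 0.66 for NST1 LOC112008346. The xylan median was 1.08, 0.91, 1.22 and 0.07, and the lignin median 0.34, 0.46, 0.47 and 0.31, so the lignin list varied least among July trees. In June the order differed, with cellulose medians of 0.79, 0.94 and 1.00 in replicates 1 to 3 beside 0.98, 1.10 and 0.90 for NST1 LOC112008346. Over the 11 trees, NST1 LOC112008346 had a median r of 0.83 with the 14 cellulose loci (0.70 within months), of 0.68 with the 16 xylan loci (0.51 within months) and of 0.34 with the 48 lignin loci (0.08 within months), beside -0.02 over all tested loci. Its median r with the 7 phloem marker loci was 0.55 (0.52 within months). MYB83 had median r of 0.80, 0.69 and 0.24 with the same lists, and 20 of the 78 wall loci were above r = 0.8 with it, beside 0.963% of all loci. KNAT7 had medians of -0.20, -0.21 and -0.10. As the lists were chosen with earlier results of these data known, these correlations are a description only.

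**Figure D5:**
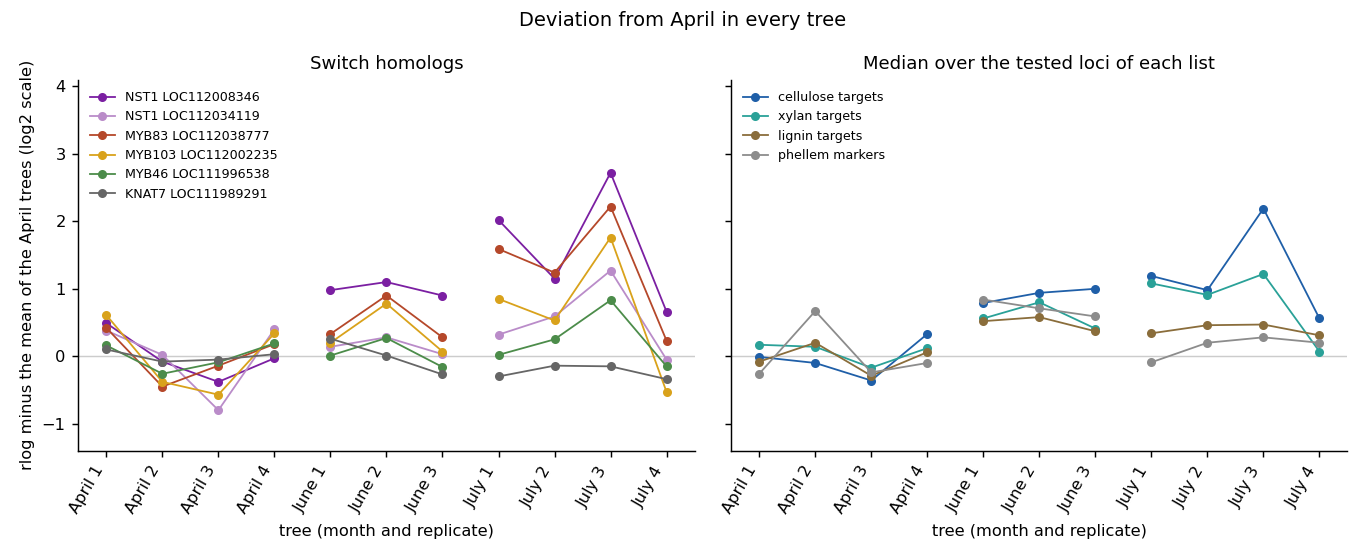
rlog minus the mean of the April trees (vertical axis, log2 scale) in each tree, for 6 members (left) and for the medians of 4 lists (right); lines only join the trees of a month and imply no order. July replicate 3 is the highest and July replicate 4 the lowest July tree for both NST1 loci, MYB83, MYB103 and MYB46 and for the cellulose and xylan medians, while the phellem markers stay between -0.09 and 0.28 in July.

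Markers of other cells moved in part with these values. The phloem marker median relative to April was 0.70, 0.67, 1.00 and -0.39 in July replicates 1 to 4, so the July tree with the lowest switch levels was also the lowest in phloem markers. June went the other way, with phloem medians of 0.32, 0.04 and 0.73 in replicates 1 to 3. June replicate 2, the highest June tree in 7 of 8 members, was the lowest in phloem markers, and June replicate 3, the lowest in 7 of 8, was the highest. In July/April 0 of the 7 phloem loci passed an adjusted p of 0.05 and 2 an unadjusted p under 0.05, beside 12% and 30% of all tested loci. Markers of xylem vessel cell death had another order of trees. XCP1 LOC112002930, a vessel protease, was at 7.82, 3.25, 3.55 and 3.22 rlog in July trees, against 2.90, 7.85, 7.70 and 2.88 rlog in April trees. BFN1 LOC112034495, a nuclease, was at 8.87, 9.88, 2.39 and 6.62 rlog in April trees, with means of 2.52 rlog in June and 2.42 rlog in July. It reached the minimum only through its April trees, so its July/April log2FC of -4.52 (SE 1.27, adjusted p = 0.0447) is a description only. XCP2 and MC9 matched no locus. Of the 4 tested phellogen and cambium loci, 3 were lower in June/April and 1 in July/April at an adjusted p of at most 0.05, beside 4.23% and 5.73% of all tested loci. Among them was KNAT1 LOC112015571 with a July/April log2FC of -0.73 (SE 0.19, adjusted p = 0.0342). The phellem marker median relative to April was 0.84, 0.71 and 0.59 in June replicates 1 to 3 and -0.09, 0.20, 0.28 and 0.20 in July replicates 1 to 4. All 6 tested phellem loci had every July tree below every June tree, beside 5.58% of all tested loci. The part of these cells in the switch values was not tested. In bulk tissue, fewer cells of a type and less RNA per cell cannot be told apart.

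Other regulators of the network were mostly without a call. Of 13 tested activator loci downstream of or beside the switches, 0 passed an adjusted p of 0.05 by limma in any comparison. Over all tested loci, 9.81% passed for June/April, 12% for July/April and 0.00446% for July/June. At an unadjusted p under 0.05, June/April had 2 of the 13, beside 28.3% of all tested loci. July/April had 3, beside 30%, and July/June had 3, beside 8.93%. SND2 LOC112040894, a NAC activator of wall genes, averaged 12.25 ± 0.88 rlog in July and 11.43 ± 0.83 rlog in April (SD, n = 4 each), a log2FC of 0.82 (SE 0.49, adjusted p = 0.292). MYB52 LOC112038635 had a log2FC of -0.25 (SE 0.14, adjusted p = 0.252). Among 9 tested repressor and partner loci, 2 were lower and 0 higher in July/April at an adjusted p of at most 0.05, beside 5.73% and 6.31% of all tested loci, and 1 was lower and 1 higher in June/April, beside 4.23% and 5.57%. By limma 0 were DEGs, with 3 (June/April), 5 (July/April) and 2 (July/June) at an unadjusted p under 0.05, beside 28.3%, 30% and 8.93%. VNI2 LOC111994497, a NAC protein that binds and represses VND7 in Arabidopsis, was at 13.14, 12.99, 12.71 and 12.92 rlog in July trees, against 13.23, 13.88, 13.32 and 13.52 rlog in April trees (log2FC -0.55, SE 0.15, adjusted p = 0.0448). MYB4 LOC112037069, a repressor of phenylpropanoid genes, had a log2FC of -0.71 (SE 0.15, adjusted p = 0.0142). For both loci every July tree was below every April tree. The MYB4 loci did not move one way: LOC112009383, named after its values were seen, had a June/April log2FC of 0.86 (SE 0.17, adjusted p = 0.0165), with every June tree above every April tree, and a July/April log2FC of 0.45.

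The loci with the profile most like each switch were listed by Pearson r over the 11 trees, as a description. For MYB83 the top 5 had r of 0.966 to 0.975 and included LOC111984140, a homolog of the lignin regulator MYB42 (0.969), and COBL4 LOC112004749 (0.966). MYB42 LOC111984140 itself had a July/April log2FC of 1.03 (SE 0.33, adjusted p = 0.0648). For MYB46 the top 5 had r of 0.884 to 0.928 and included SND2 LOC112040893 (0.89) and MYB103 (0.89). LOC112005503, whose best hit is AT5G01360, was among the top 5 of MYB46 (0.884), MYB103 (0.955) and NST1 LOC112034119 (0.905). For KNAT7 the closest locus was LOC112015330 (AT4G32760) with r = 0.915, and none of its top 5 was in any list. For NST1 LOC112008346, added after its values were seen, GUX1 LOC112008671 (0.978) and PARVUS LOC112011992 (0.976), both glycosyltransferases of xylan, were among the top 5. GUX1 had a July/April log2FC of 2.45 (SE 0.58, adjusted p = 0.0235), with every July tree above every April tree, and PARVUS of 1.87 (SE 0.52, adjusted p = 0.0429).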

How the data were processed

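PolyA RNA of innercork was sequenced from 11 trees (4 in April, 3 in June, 4 in July), each tree a biological replicate. Reads were checked with FastQC 0.11.5 and aligned by the authors with STAR 2.5.3a to the CorkOak1.0 genome after removal of adapters and ribosomal RNA; the program that counted them is not given in the sources used here. The authors deposited log2 values (rlog of DESeq2) per locus with the Arabidopsis best hit (TAIR10). Shrinkage in rlog pulls low levels together, so folds of low loci are understated. The depth of each sample is unknown, as the table holds no counts. Every per-sample column was used (0 were left unmapped).

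Month means were compared in limma 3.58.1 (R 4.3.3) with month as factor, all 11 trees in 1 fit, a mean-variance trend and Benjamini-Hochberg adjustment over the 22426 loci whose mean rlog reached 3.32. The script was tested on simulated data. Within-tree differences of locus pairs were compared by exact permutation tests. The study's own DEG limits were used. The members and lists were chosen with earlier results of these data known. Named in the text are all members above the minimum, those below it with no other locus, and for each other list the called loci or otherwise the 2 with the highest mean, and the 5 most correlated loci of a switch; other names are marked. Alternatives were other minimums, a pseudocount, median centring, quantile normalization, eBayes without trend or robust, array weights, only the months compared, a replicate block, an adjusted p of 0.05 and leaving out trees. Gene biotypes come from RefSeq (assembly Cork oak 2.0), which matched 10 of 10 members by name. Figures were drawn with matplotlib 3.10.9.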

Additional observations from a re-analysis of the deposited data

Results flagged for a closer look

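In 20 groups of 4 trees (members and locus pairs in April and July), a tree was looked for whose gap to the nearest other tree took up most of the range of its group. Of these, 2 were found, and chance alone gives about 1 in 20 groups. MYB63 LOC112031844 in April replicate 2 was at 7.21 rlog, with the nearest other April tree at 9.31 rlog. The within-tree difference of the MYB63 loci (LOC112031843 minus LOC112031844) in July replicate 4 was -0.42, with the nearest other July tree at 1.71.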

How the results depend on the processing

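Of 500 alternative values of the 23 log2FCs of members that were not 0 at 2 decimals, 487 kept their direction and side of the DEG limits, 7 passed those limits and 6 reversed. June/April of KNAT7, at 0.00, had no direction to keep and lay between -0.13 and 0.13. The reversals were near 0: June/April of MYB46 was -0.06 with array weights, -0.05 with April replicate 2 and July replicate 4 both left out (a choice made after seeing the data) and -0.07 to 0.14 with single trees left out; June/April of NST1 LOC112034119 was -0.12 to 0.28 and July/June of MYB103 was -0.06 to 0.70 with single trees left out. Member DEGs in July/April, 0 as reported, were 1 with array weights and 1 at an adjusted p of 0.05 with no fold limit. They were 0 to 2 with single trees left out and 3 without the 2 trees. In June/April they were 1 without the 2 trees. Leaving the 2 trees out favoured the call of MYB63 LOC112031844 in advance, in a fit that called 5.94% (July/April) and 5.3% (June/April) of all loci. Wall list DEGs in July/April, 1 as reported, were 0 with no minimum, with median centring, without the eBayes trend, with only the months compared and with the replicate block, 3 with a minimum of log2(50), 15 with array weights, 23 at an adjusted p of 0.05, 0 to 12 with single trees left out and 13 without the 2 trees. In June/April, 0 as reported, they were 1, 5 and 7 with that minimum, array weights and the adjusted p of 0.05, 0 to 4 with single trees left out and 5 without the 2 trees. Over 22 alternatives, the July/April adjusted p of NST1 LOC112008346 was 0.00683 to 0.0648, at most 0.05 in 18, and that of MYB83 0.00758 to 0.114, at most 0.05 in 8. The cause of these shifts was not tested.

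Replicate numbers as given in the sample titles did not pair the trees: of 10 same-number pairs, 1 had a correlation of deviations over 0.1 (range -0.077 to 0.211), and 4 of 11 trees correlated best with their own number. The library names number some June trees differently, and pairing by those names was not tested. With the replicate block, member DEGs stayed 0, and DEGs over all loci numbered 55 (June/April), 212 (July/April) and 0 (July/June), against 327, 457 and 1 without it. Array weights gave 1306 and 1272 DEGs in June/April and July/April. With 3 or 4 trees a month, the printed intervals show how precise each difference is, and rlog shrinks those of low loci.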
